A study of Bos taurus with 21 samples.

Results

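The rows 17_28610, X_41367 and 17_28203 are 3 of 126 rows in a table of small RNAs from vesicles of bovine milk. They hold ranks 4 to 6 by mean over 21 libraries. They were chosen by measured values, their mean share, their joint variation and their low level in clinical mastitis, so their levels in clinical libraries, and how closely they move together, are given below as a description with no test. Their means over all libraries were 10.6%, 4.86% and 2.201% of the listed reads. Just outside those ranks lay 2_2827 at 16.5% (rank 3) and 12_21573 at 1.95% (rank 7). All 3 rows were above 0 in all 21 libraries. They carry provisional identifiers, as do 37 of the 126 rows, and the table pairs these with no sequence, gene or position, so no sequence is shown and no role is given to them. The other 89 rows carry a miRNA name.

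The libraries came from extracellular vesicles of milk from cows with clinical mastitis (7), cows with subclinical mastitis (7) and healthy cows (7), the healthy animals being the controls. No breed, age, pathogen or treatment is given in the labels, and each library is 1 cow. Small RNA was extracted with a column kit and made into adapter-ligated libraries.

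Extracellular vesicles are membrane-bound particles that cells release into milk and other fluids, and they carry small RNAs, among them microRNAs, which pair with messenger RNAs and lower their translation or stability. Mastitis is an inflammation of the udder, usually caused by bacteria: the clinical form shows in the milk or the udder, and the subclinical form is found by tests such as a raised somatic cell count. Inflamed milk holds many more leukocytes than healthy milk, so vesicles from inflamed and healthy udders can differ in their cells of origin. In such bulk material, fewer vesicles that carry an RNA and less of that RNA per vesicle cannot be told apart.

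Shares are percent of the reads over the 126 listed rows, computed from RPM (reads scaled to 1000000 listed reads). In every library the lowest nonzero RPM divides the other values without remainder, and taking it as 1 read gives 2851 to 5511 implied reads in clinical, 1785 to 4979 in subclinical and 954 to 9587 in healthy libraries. The rarest of the 3 rows rested on as few as 8 reads in a library. Markers of milk and of other cells were scarce: 6 of 8 milk miRNAs were listed, with 3 reads in clinical, 234 in subclinical (215 of them in subclinical 4) and 12 in healthy libraries. Their summed share was 0% to 0.0363% in clinical, 0.0603% to 7.18% in subclinical and 0% to 0.524% in healthy libraries. Of 8 leukocyte, 4 erythrocyte and 7 epithelial miRNAs, 1, 1 and 2 were listed, with 0 reads in clinical and healthy libraries and 2, 2 and 5 in subclinical ones. The leukocyte-defining miR-223 and miR-142 and the milk-abundant miR-148a were among the markers with no row.

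On average the 3 rows were lower in clinical than in healthy or subclinical libraries. As a log2 difference 17_28203, the rarest, was the furthest below. In percentage points its clinical minus healthy difference was the smallest (-2.80, against -10.8 for 17_28610 and -5.56 for X_41367). In pooled within-group SDs of the shares the differences were alike, at 1.66 for 17_28203, 1.70 for 17_28610 and 1.75 for X_41367. Row 17_28610 took 2.47% to 8.48% of the reads in clinical libraries (median 3.47%), 4.28% to 30.3% in subclinical libraries (median 7.48%) and 4.44% to 28.5% in healthy libraries (median 14.4%). Its 2 highest clinical libraries were clinical 4 and clinical 6, and its 2 lowest healthy libraries were healthy 3 and healthy 5. The groups overlapped, and 4 of 7 clinical libraries lay below the lowest healthy one.

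Row X_41367 had the same order of libraries at its ends. It took 0.898% to 4.14% in clinical libraries (median 1.49%), 1.84% to 13.1% in subclinical libraries (median 3.40%) and 2.002% to 13.8% in healthy libraries (median 7.17%). Here 5 of 7 clinical libraries lay below the lowest healthy one.

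Row 17_28203 took 0.145% to 2.32% in clinical libraries (median 0.421%), 0.896% to 4.92% in subclinical libraries (median 1.83%) and 0.550% to 6.49% in healthy libraries (median 3.10%). Clinical 4 stood apart at 2.32% (exact Clopper-Pearson 95% interval 1.84% to 2.87%, 80 of 3454 reads), against at most 0.922% in the other 6 clinical libraries. At the low end, clinical 10 held 8 of 5511 reads, 0.145% (interval 0.0627% to 0.286%). These intervals cover counting error only.

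**Figure D1:**
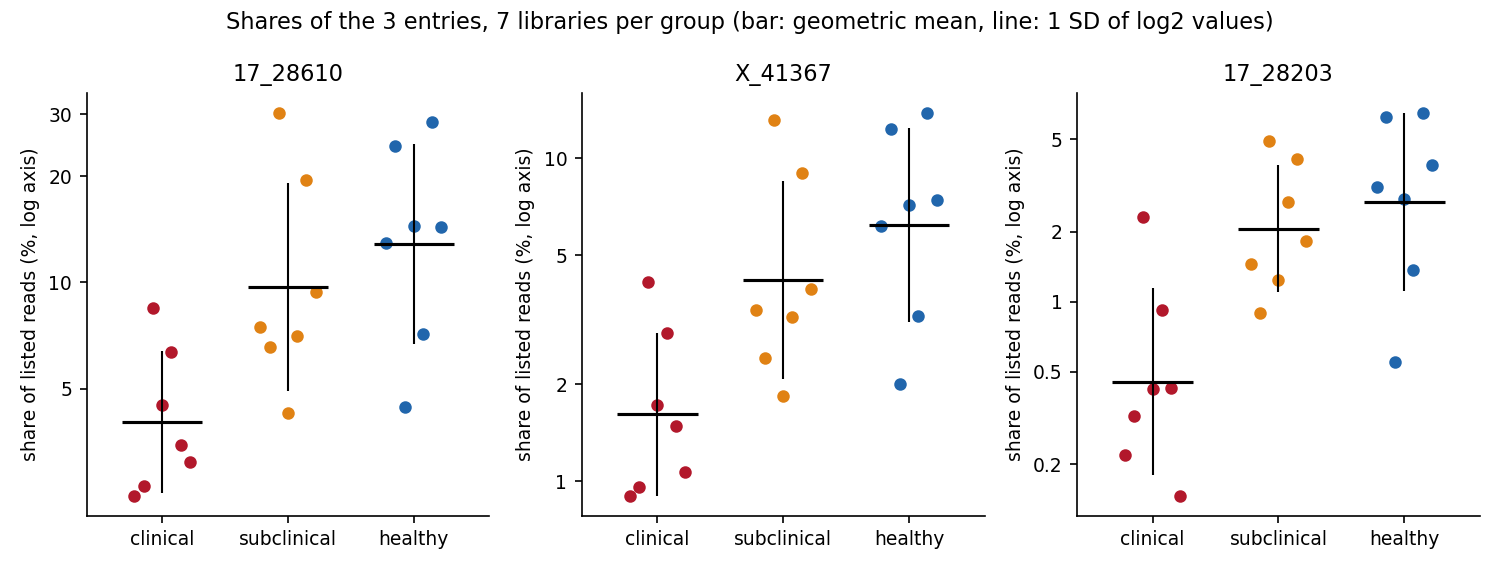
Share of the listed reads (percent, log axis) of 17_28610, X_41367 and 17_28203 in 7 clinical, 7 subclinical and 7 healthy libraries. Points are libraries, bars geometric means and vertical lines 1 SD of the log2 values; the clinical points lie lowest in each panel and overlap the healthy ones, and clinical 4 is the high clinical point at 2.32% for 17_28203.

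On the log2(RPM + 1) scale the clinical mean was below the healthy mean by 1.68 for 17_28610, by 1.95 for X_41367 and by 2.57 for 17_28203, against pooled within-group SDs of 0.815, 0.919 and 1.30. Without clinical 4 the difference of 17_28203 was -2.96. Against subclinical libraries the clinical means lay lower by 1.27, 1.38 and 2.19 (SDs 0.839, 0.931 and 1.14). For all 3 rows 7 of 7 clinical libraries lay below the healthy mean. No row of the 126 (0%) had all clinical libraries below all healthy ones. Of all 126 rows 32 were lower and 26 higher in clinical than in healthy libraries, and the rest were equal. The median difference of 0 over all rows thus reflects those equal rows. Over the 13 other rows above 0 in all libraries the median clinical minus healthy difference was 0.16, with 5 lower and 8 higher.

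Within the healthy group the 3 rows were highest in healthy 6 and healthy 2, the libraries with the most implied reads, and lowest in healthy 3 and healthy 5, those with the fewest. With log2 implied reads as a covariate the clinical minus healthy differences were -1.76, -2.03 and -2.66. The part of depth in the low clinical shares was not tested further.

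The 3 rows kept 1 order, 17_28610 above X_41367 above 17_28203, in 21 of 21 libraries. Their place among the other rows moved. Row 17_28610 was the most abundant of all rows in subclinical 3, healthy 2 and healthy 6, and rank 4 or 5 in the clinical libraries. Row 17_28203 ranked 8 to 14 in clinical libraries, 6 to 11 in subclinical libraries and 6 to 11 in healthy libraries. The 3 rows filled ranks 4 to 6 in 4 libraries, none of them clinical.

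Together the 3 rows took 3.59% to 14.9% of the reads in clinical libraries, 7.35% to 48.3% in subclinical libraries and 6.99% to 48.8% in healthy libraries. The 3 most abundant rows, X_42271, 16_27381 and 2_2827, took 84.5% ± 6.31 in clinical, 68.1% ± 12.8 in subclinical and 65.3% ± 13.7 in healthy libraries (SD, n = 7 each). The 6 rows together took 91.5% ± 2.76 in clinical, 87.9% ± 5.47 in subclinical and 91.4% ± 3.87 in healthy libraries. The remainder, spread over 120 rows, was thus 8.54% ± 2.76 in clinical and 8.61% ± 3.87 in healthy libraries, a mean difference of -0.0696 percentage points. Single rows of the remainder still differed. Of the 10 above 0 in all libraries, 5 were lower and 5 higher in clinical than in healthy libraries. Their log2(RPM + 1) differences ran from -1.88 to 1.16. In summed shares, the gap between clinical and healthy libraries lay within the 6 rows, between the 3 most abundant ones and the 3 below them. Since values are shares, a lower amount of 1 set and a higher amount of the other cannot be told apart.

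**Figure D2:**
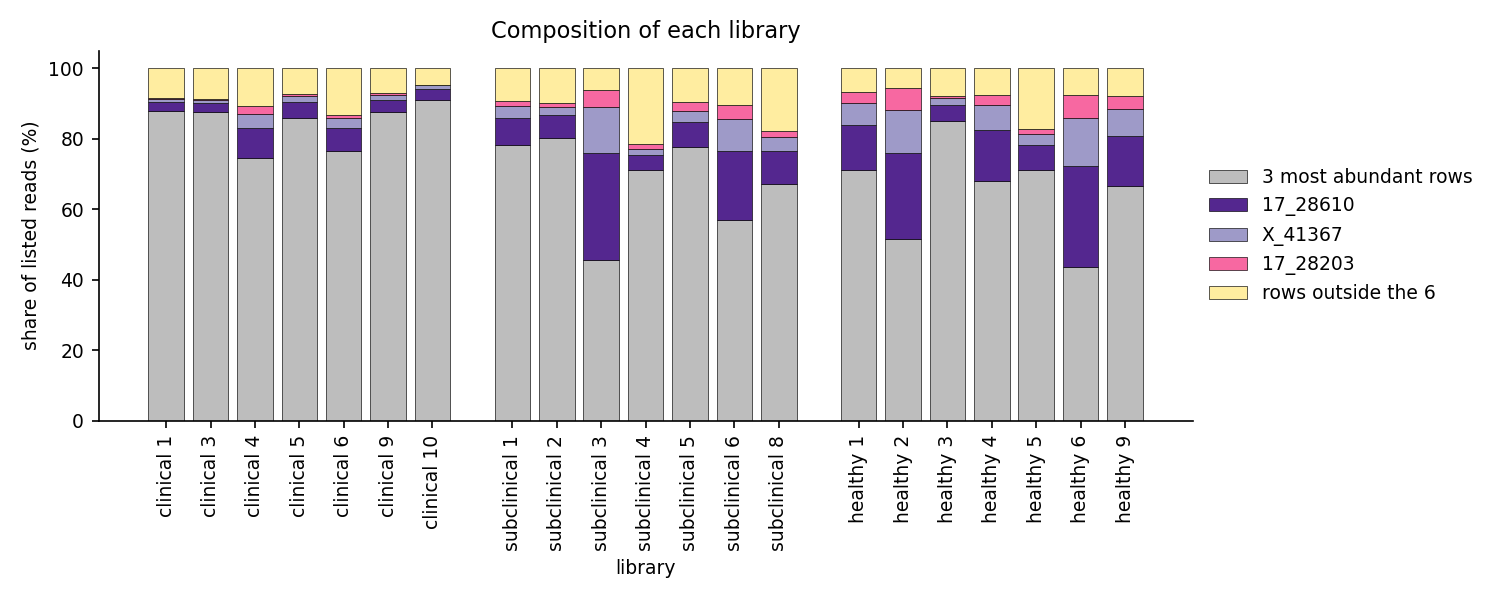
Share of the listed reads (percent) in each of 21 libraries, stacked as the 3 most abundant rows, 17_28610, X_41367, 17_28203 and the rows outside the 6. The 3 rows make up 3.59% to 14.9% of clinical, 7.35% to 48.3% of subclinical and 6.99% to 48.8% of healthy libraries, and the top segment is widest in subclinical 4.

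The ratio of 2 rows within a library does not depend on what the other rows do. Row 17_28610 stayed within a narrow range of multiples of X_41367 in each group, with the lowest median in healthy libraries. The ratio was 2.05 to 2.90 in clinical libraries (median 2.61), 2.18 to 2.72 in subclinical libraries (median 2.31) and 1.94 to 2.22 in healthy libraries (median 2.06). Clinical 4 and clinical 6 were the clinical libraries within the healthy range. In 5 of 7 clinical libraries the ratio exceeded the highest healthy one.

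Row 17_28203 followed the other 2 less tightly. The ratio of 17_28610 to it was 3.66 to 21.4 in clinical libraries (median 8.25), 2.64 to 7.31 in subclinical libraries (median 5.13) and 3.74 to 8.07 in healthy libraries (median 4.39). The ratio of X_41367 to it was 1.79 to 7.38 in clinical libraries (median 3.50), 1.21 to 2.69 in subclinical libraries (median 2.19) and 1.93 to 3.64 in healthy libraries (median 2.13). Both were highest in clinical 10 and lowest among clinical libraries in clinical 4. The log2 ratio of 17_28610 to 17_28203 averaged 3.15 ± 0.774 in clinical, 2.24 ± 0.497 in subclinical and 2.26 ± 0.380 in healthy libraries (SD, n = 7 each). That of X_41367 to 17_28203 averaged 1.83 ± 0.615, 1.02 ± 0.436 and 1.21 ± 0.328 in clinical, subclinical and healthy libraries.

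**Figure D3:**
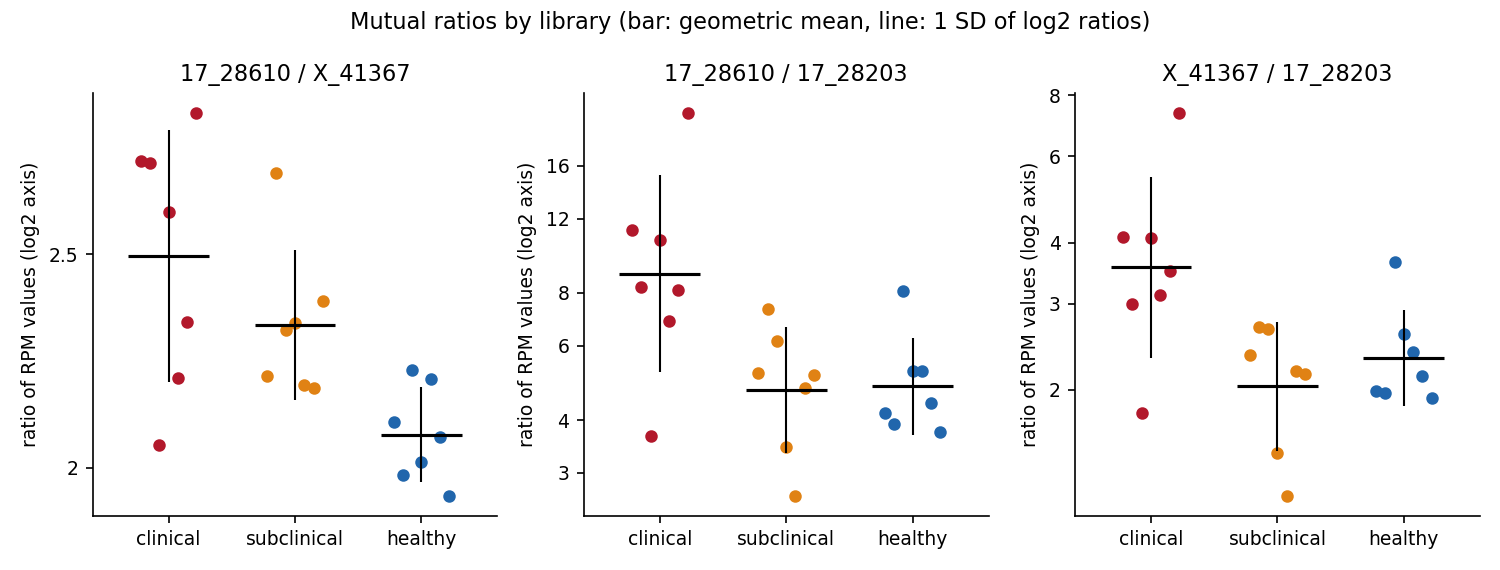
Ratio of RPM values (log2 axis) for the 3 pairs of rows in 7 clinical, 7 subclinical and 7 healthy libraries. Points are libraries, bars geometric means and vertical lines 1 SD of log2 ratios; the left panel spans only 1.94 to 2.90, and in the middle panel clinical 10 reaches 21.4 and clinical 4 lies at 3.66.

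Among the 120 pairs of the 16 rows above 0 in all libraries, the pair 17_28610 and X_41367 ranked 3 by smallest within-group SD of the log2 ratio, at 0.134. Smaller values were found for 2 pairs of the most abundant rows, X_42271 with 16_27381 at 0.0512 and X_42271 with 2_2827 at 0.122. Counting error alone, for reads counted independently in the rows, would give an SD of 0.188 for 17_28610 with X_41367. Its observed spread thus lay below the counting SD, as it did for X_42271 with 16_27381 (0.0512 against 0.0688) and for 26_37774 with 2_2859 (0.691 against 0.722), and in none of the other pairs. For X_41367 with 17_28203 the SD was 0.475 (rank 5, counting 0.322), and for 17_28610 with 17_28203 it was 0.575 (rank 8, counting 0.299). Because the rows were chosen for moving together, these ranks carry no test.

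**Figure D4:**
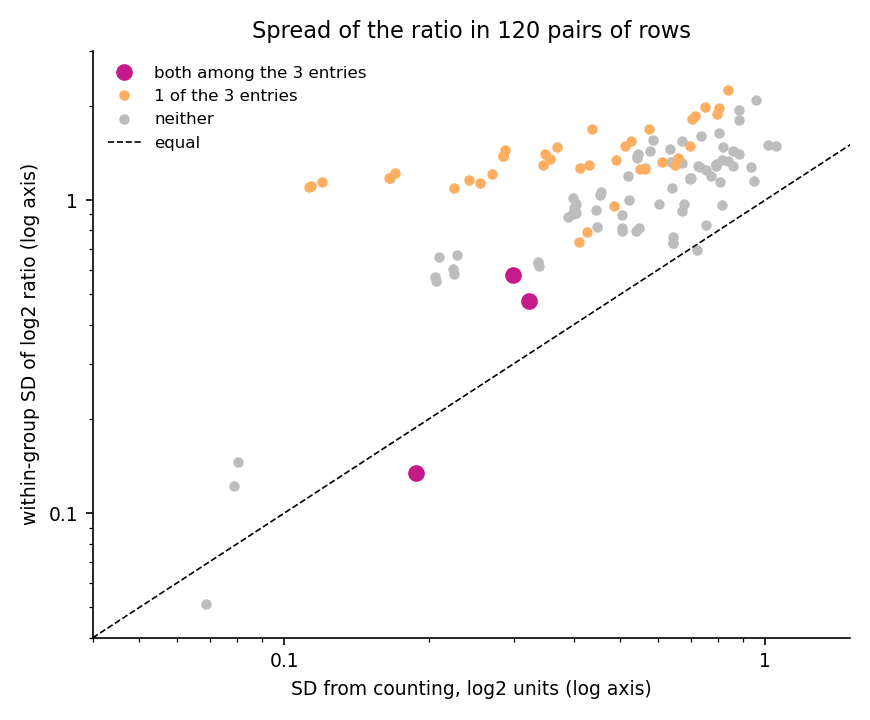
Within-group SD of the log2 ratio against the SD expected from counting (both in log2 units, log axes) for 120 pairs of rows; the dashed line marks equality. The 3 pairs among 17_28610, X_41367 and 17_28203 lie at 0.134, 0.475 and 0.575, the first of them under the line of equality.

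The other rows were ranked by the same measure. The SD of the log2 ratio to their geometric mean was lowest for 13_22779 (0.794, with 0.396 from its own counting error), 12_21573 (1.15) and 16_27381 (1.2001), and highest for 15_26127 (2.02), of 13 rows over 21 libraries. For 13_22779 the SD was 0.792 in clinical, 1.06 in subclinical and 0.381 in healthy libraries. Among healthy libraries the log2 ratio of 17_28610 to 13_22779 had an SD of 0.346, against 0.380 for that of 17_28610 to 17_28203.

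Subclinical milk was then compared with healthy milk, a contrast outside the rule that set the rows apart, although their joint variation was seen over all 21 libraries. The 3 rows were lower on average in subclinical libraries, by less than the spread within groups, and none passed the test. Row 17_28610 averaged 12.1% ± 9.41 in subclinical and 15.2% ± 8.66 in healthy libraries (SD, n = 7 each). For X_41367 the subclinical mean was 5.27% ± 4.18 and the healthy one 7.44% ± 4.34. For 17_28203 the subclinical mean was 2.44% ± 1.54 and the healthy one 3.48% ± 2.26. In each case 5 of 7 subclinical libraries lay below the healthy mean, and subclinical 3 and subclinical 6 lay above it. By limma's moderated test on log2(RPM + 1) with Benjamini-Hochberg adjustment over 126 rows, the difference was -0.41 for 17_28610 (95% interval -1.01 to 0.20, adjusted p = 0.342). It was -0.57 for X_41367 (-1.32 to 0.18, adjusted p = 0.342) and -0.38 for 17_28203 (-1.40 to 0.64, adjusted p = 0.585). For 17_28610 the interval spans a subclinical to healthy ratio of 0.495 to 1.15, so the test does not show that the levels are alike. None of 126 rows passed (0%), and 6 (4.76%) had an unadjusted p under 0.05, none of them 1 of the 3. By exact permutation per row 0 passed as well.

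Ratios to the sum of the 120 rows outside the 6 most abundant were compared in the same way. For 17_28610 this ratio was 0.295 to 0.803 in clinical libraries, 0.198 to 4.99 in subclinical libraries and 0.415 to 4.42 in healthy libraries. For X_41367 it was 0.107 to 0.392, 0.0853 to 2.16 and 0.189 to 2.23 in clinical, subclinical and healthy libraries, and for 17_28203 it was 0.0261 to 0.219, 0.0574 to 0.811 and 0.0700 to 1.13. The lowest subclinical value of all 3 was in subclinical 4, where rows with a miRNA name took 12.7% of the reads against 0% to 0.734% in the other 20 libraries.

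On the log2 scale these ratios were lower in clinical than in healthy libraries by 1.69 for 17_28610 (pooled SD 0.988), by 1.96 for X_41367 (1.05) and by 2.58 for 17_28203 (1.33). Those differences were close to the ones of the shares. Against subclinical libraries the clinical ratios were lower by 0.83, 0.93 and 1.74 in the same order. The SDs in the same order were 0.548, 0.654 and 1.02 in clinical and 1.46, 1.49 and 1.34 in subclinical libraries. Leaving out 1 library, this difference ran from -1.18 to -0.41 for 17_28610, from -1.29 to -0.51 for X_41367 and from -2.07 to -1.38 for 17_28203. The subclinical minus healthy difference was -0.87 for 17_28610 (95% interval -1.85 to 0.12), -1.03 for X_41367 (-2.13 to 0.06) and -0.84 for 17_28203 (-2.12 to 0.44). None of the 3 passed limma's test over 126 rows (adjusted p = 0.593 for each). Of 126 rows 2 passed (1.59%), miR-21-5p and 13_22779, both noted after their values were seen. Row miR-21-5p was above 0 in only 9 of 21 libraries. It held 174 reads in subclinical libraries, 163 of them in subclinical 4, against 5 in healthy and 0 in clinical libraries. With provisional rows alone as the denominator the 3 subclinical minus healthy differences were -0.68, -0.85 and -0.65.

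Of the 120 rows outside the 6, 10 were above 0 in all libraries, and each was also used as a denominator on its own. The 10 ratios of a row all hold that row, so the counts below are not 10 separate observations. In clinical against healthy libraries the log2 ratio of 17_28610 was lower for 9 of 10 denominators (median -1.55, from -2.84 with X_41828 to 0.20 with 13_22779). The ratio of X_41367 was lower for 10 of 10 (median -1.81, from -3.11 to -0.07), and so was that of 17_28203 (median -2.43, from -3.73 to -0.68). The ends were again X_41828 and 13_22779. No such ratio separated the clinical from the healthy libraries, as 1 of all 120 pairs of rows did (0.833%). In subclinical against healthy libraries, which share the healthy controls with the comparison above, each ratio was lower for 9 of 10 denominators, with medians of -0.73, -0.90 and -0.71, and the exception was 13_22779. Between clinical and subclinical libraries, 17_28610 and X_41367 were lower in clinical ones for 8 of 10 denominators (medians -1.16 and -1.26, up to 0.53 and 0.42). For 17_28203 this held for 10 of 10 (median -2.07, up to -0.39).

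**Figure D5:**
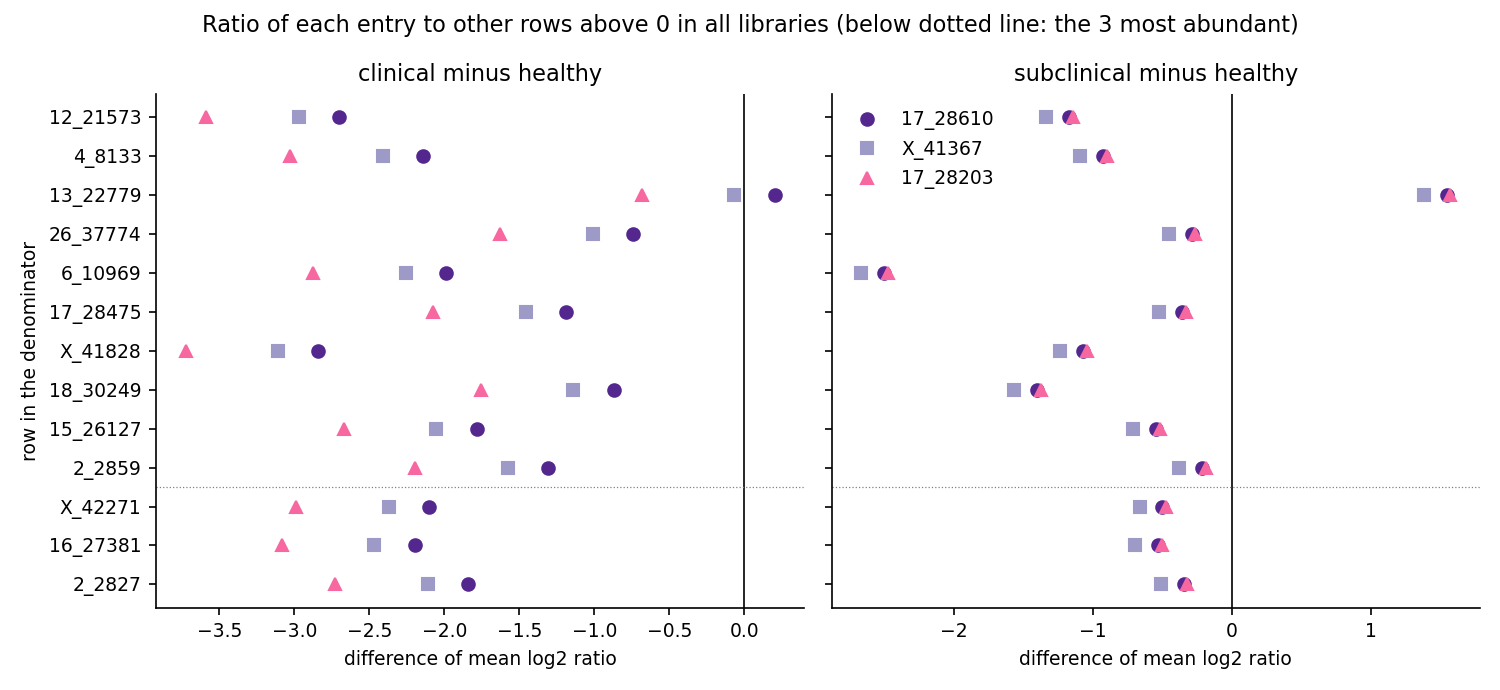
Difference of the mean log2 ratio of 17_28610, X_41367 and 17_28203 to each of 13 rows, for clinical minus healthy (left) and subclinical minus healthy (right). Points left of 0 mean a lower ratio in mastitis; in the left panel they run from -3.73 to 0.20 and in the right panel 13_22779 alone lies right of 0.

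The ratios that differed between subclinical and healthy libraries were tested over all 120 pairs by an exact two-sided permutation of 7 against 7 libraries. Of the 120 pairs 21 passed an adjusted p of 0.05 (17.5%), and 19 of those held 13_22779 or 6_10969. Without healthy 2 the count was 9. Groups were fully apart in 2 pairs (1.67%), neither of which held any of the 3 rows.

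The mutual ratios of the 3 rows belong to what they were chosen for, so they are given here with no test. The log2 ratio of 17_28610 to X_41367 averaged 1.32 ± 0.190 in clinical, 1.22 ± 0.113 in subclinical and 1.05 ± 0.0718 in healthy libraries (SD, n = 7 each). All 7 subclinical libraries lay above the healthy mean and 4 above the highest healthy library, a mean difference of 0.17 or 1.12-fold. A shift of about that size was also present among the most abundant rows. The log2 ratio of 16_27381 to 2_2827 averaged 0.69 in subclinical and 0.51 in healthy libraries, a difference of 0.18 or 1.14-fold, with 7 of 7 subclinical libraries above the healthy mean. The subclinical minus healthy difference was -0.03 for 17_28610 to 17_28203 and -0.19 for X_41367 to 17_28203.

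With 13 other rows each, the 3 rows formed 39 pairs, of which 6 passed (15.4%), against 14 of 78 pairs that held none of them (17.9%). The 6 were each of the 3 rows with 13_22779 and with 6_10969, a row noted after its values were seen. Pairs of 13_22779 with other rows passed in 6 of 11 cases, and so did those of 6_10969, so these calls are not particular to the 3 rows. Row 13_22779 took 0.372% ± 0.148 in clinical, 0.340% ± 0.125 in subclinical and 1.45% ± 0.821 in healthy libraries. It rested on 5 to 20 implied reads per clinical library, 6 to 17 per subclinical library and 9 to 229 per healthy library. The ratio of 17_28610 to it was 6.60 to 22.6 in clinical libraries (median 10.7), 14.6 to 88.7 in subclinical libraries (median 24) and 7.56 to 16.3 in healthy libraries (median 10.3). In 6 of 7 subclinical libraries it exceeded the highest healthy one. The subclinical minus healthy difference of this log2 ratio was 1.54 (2.91-fold, exact permutation, adjusted p = 0.0272). It was 1.38 for X_41367 (adjusted p = 0.0272, exact permutation) and 1.57 for 17_28203 (adjusted p = 0.0366, exact permutation). Clinical minus healthy values of the same ratios were 0.20, -0.07 and -0.68. The pair with 17_28610 passed without any 1 library (adjusted p up to 0.0466), while the other 2 lost the call without some (up to 0.0668 for X_41367, without healthy 1, 2, 3, 5 or 6, and up to 0.0699 for 17_28203, without subclinical 3, 4, 5 or 6 or healthy 1, 2, 3, 5 or 6).

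Row 6_10969 took 0.650% ± 1.13 in clinical, 1.02% ± 0.415 in subclinical and 0.259% ± 0.181 in healthy libraries. It rested on 3 to 110 implied reads per clinical library, 9 to 56 per subclinical library and only 1 to 20 per healthy library. Its clinical mean rests on clinical 4, at 3.18%, and without that library it was 0.228% ± 0.141 (SD, n = 6), below the healthy mean. The ratio of 17_28610 to it was 2.66 to 54.3 in clinical libraries (median 16), 3.76 to 26.9 in subclinical libraries (median 13) and 18.8 to 138 in healthy libraries (median 68). The healthy median is the value of healthy 5, which held 1 read of 6_10969. In 6 of 7 subclinical libraries the ratio lay below the lowest healthy one. The log2 ratios to 6_10969 differed by -2.50 for 17_28610, -2.66 for X_41367 and -2.47 for 17_28203 (exact permutation, adjusted p = 0.0272 for each). The call of 17_28203 was lost without subclinical 5 or healthy 2 (adjusted p up to 0.0513, exact permutation).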

How the data were processed

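Small RNA from milk extracellular vesicles was sequenced in 21 libraries, 7 per group. The authors deposited 1 table of 126 rows, whose values are named TPM but behave as RPM. The columns add up to 1000000, and all 629 nonzero values (100%) are whole multiples of the lowest one in their library, within 0.01. Bowtie, edgeR and the build ARS-UCD1.2 appear, with no roles, in the submitters' processing notes; the tool behind the provisional identifiers is not given in the sources used here. One read was worth 104.3 to 1048 RPM. Clinical columns carry another prefix than the sample titles, with the same numbers.

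The rows and lists were chosen with earlier results of these data known. Levels were tested with limma-trend (limma 3.58.1, R 4.3.3) on log2(RPM + 1), 21 libraries in 1 fit, rows with a mean of at least 1 RPM (all 126), two-sided, Benjamini-Hochberg over all rows; an adjusted p under 0.05 was called. The same fit was run on log2((RPM + 1) / sum of the 120 rows outside the 6 most abundant). Ratios between rows above 0 in all libraries were tested by exact permutation, and those among the 3 rows, which the choice of rows used, are printed without p. The counting SD is the root of the mean of 1/a + 1/b over libraries for reads a and b, in log2 units. Named rows were the 3 rows, their neighbours in rank, the 3 most and 1 least alike; others are marked as chosen after their values were seen. All 63 within-group pairs of libraries differed beyond counting noise (chi-square per degree of freedom at least 1.85). The tests were tried on simulated data with larger changes than those tested here for the 3 rows. That trial does not show their power for the smaller changes. Same-numbered libraries come from different cows, and the numbers pair nothing. Python 3.11.15, NumPy 2.4.6, SciPy 1.17.1, pandas 2.3.3 and matplotlib 3.10.9 were used.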

Additional observations from a re-analysis of the deposited data

Results flagged for a closer look

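Of 27 sets of 7 libraries examined (shares, mutual ratios and ratios to the rows outside the 6), 2 held a library apart from the others, where chance gives about 1 in 20. The share of 17_28203 in clinical 4 was 2.32%, against 0.145% to 0.922% in the other 6 clinical libraries. The log2 ratio of 17_28610 to X_41367 in subclinical 2 was 1.44, against 1.12 to 1.25 in the other 6 subclinical libraries. Subclinical 2 has the fewest implied reads of its group, 1785.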

How the results depend on the processing

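The 18 differences of level and of ratio to the rows outside the 6 kept their sign under every setting tried, among them 1 chosen after seeing the data (13_22779 left out of the denominator). Removal of the 3 most abundant rows and rescaling shifts log2 differences by 1.15 (clinical minus healthy) and 1.04 (clinical minus subclinical). The clinical minus healthy difference was then -0.53 for 17_28610, -0.80 for X_41367 and -1.42 for 17_28203. The clinical minus subclinical ones were -0.24, -0.34 and -1.15. For 17_28610 and X_41367 these differences were smaller than the pooled within-group SDs of log2(RPM + 1) given above. Median-of-ratios scaling shifted clinical minus healthy by 0.24, and trimmed-mean scaling, computed with equal weights, shifted subclinical minus healthy by -0.45. From reads summed per group, the subclinical minus healthy differences of the log2 ratios to 17_28203 changed sign. They were 0.27 for 17_28610 and 0.10 for X_41367. Leaving out 1 library, the mutual ratio of 17_28610 to 17_28203 in subclinical against healthy libraries ran from -0.13 to 0.11 and so changed sign (0.05, 0.11 and 0.10 without subclinical 4, subclinical 5 and healthy 3), and that of 17_28610 to X_41367 from 0.13 to 0.18.

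With the replicate number as a block that ratio was 0.14, and 0 of 120 pairs passed, since 6 pairs cannot give a p below 0.0312. Deviations from the group mean correlated above 0.1 in 7 of 17 pairs of same-numbered libraries. The correlations ran from -0.77 to 0.65. Rows called for level in subclinical against healthy libraries numbered 0, but 1 with a pseudocount of 10, after median-of-ratios or trimmed-mean scaling or without trend, 3 at a mean of at least 1000 RPM and 4 with 2 groups per fit, and 0 to 1 leaving out a library; none was 1 of the 3 rows. Rows called for the ratio to the rows outside the 6 numbered 2, but 0 with the replicate block or against the 3 most abundant rows, and 0 to 2 leaving out a library. Pairs called numbered 9 to 23 leaving out a library. Among the 3 rows depth limits 17_28203 most, at 8 to 599 reads.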
